A study of Mus musculus with 2 samples.

Results

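A set of 10 transcription factors of naive pluripotency was examined in RNA of a mouse embryonic stem (ES) cell line. They are the nuclear receptors Esrrb, Nr5a2 and Nr0b1, the Krüppel-like factors Klf2, Klf4 and Klf5, the zinc finger proteins Zfp42 and Prdm14, the CP2-family factor Tfcp2l1 and the T-box factor Tbx3. The genes were taken by name, as every probe set that the platform annotation assigns to 1 of these symbols alone. This gave all 10 genes, of 18194 measured in all, with 24 probe sets. A probe set is a group of short DNA probes on the array that together read 1 transcript.

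The line, ESSP9, has the genotype Del1.3MbWBS, meaning that 1.3 Mb of the region lost in Williams-Beuren syndrome (WBS), a human disorder, is missing. Both arrays are of this line and are named as biological replicates 1 and 2, without a word on separate cultures, and their spread could be technical in part. The cells grew on feeder cells in 20% serum replacement with leukaemia inhibitory factor (LIF), and 6 µg of total RNA per array was labelled with biotin. Cells lacking the deletion were not analysed here, so no value below can be read as an effect of the deletion or as free of one. None of the 10 genes lies in the WBS segment between Gtf2i and Fkbp6 in the reference gene table (0 of 10), and Tbx3 alone shares its chromosome, 5.

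Naive pluripotency is the state of the inner cell mass of the blastocyst before implantation, which mouse ES cells keep in culture. A small set of transcription factors holds it in a network in which the members bind at each other's genes and at those of the core factors Pou5f1, Sox2 and Nanog. Signals enter at different nodes: LIF acts through STAT3 on Klf4 and Tfcp2l1, inhibition of GSK3 relieves repression of Esrrb by Tcf7l1, and FGF signalling works against the network. Most of these factors are switched off as cells pass to the post-implantation epiblast.

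Values are log2 expression values of RMA (robust multi-array average), made by the authors, and each mean ± SD rests on n = 2 arrays. RMA gives no detection call. A gene was therefore called above background where its brightest probe set exceeded a threshold set by 39 olfactory receptor genes, their 95th percentile. ES cells are not expected to transcribe those genes. It stood at 5.59 for the mean, 5.60 for replicate 1 and 5.58 for replicate 2, and all 3 had to be passed. The olfactory receptor genes ran from 3.36 to 5.68 in their means, with a median of 4.15. Probes differ in affinity, so no ranking of the 10 genes by level is given.

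The sequences before the transcription starts are shown first for 5 of the genes, because they hold the short motifs that the factors of this network and the general transcription machinery are known to bind. RefSeq windows were matched by symbol for 7 of the 10 genes, Esrrb and Nr5a2 with 2 starts each, which made 9 windows; Klf5, Tbx3 and Prdm14 had none here. Each is given as the 250 bases before the start, on GRCm38.p6, 5′ to 3′ on the strand of the gene. Capitals mark matches, on either strand, to the motifs searched: the octamer of Pou5f1 (ATGCAAAT), the nuclear receptor element (AGGTCA), the CACCC box of Krüppel-like factors, the GC box (GGGCGGG), a STAT element (TTCNNNGAA), a T-box element (AGGTGTG) and the TATA box (TATAAA).

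Zfp42, chr8:43307010-43307259, minus strand: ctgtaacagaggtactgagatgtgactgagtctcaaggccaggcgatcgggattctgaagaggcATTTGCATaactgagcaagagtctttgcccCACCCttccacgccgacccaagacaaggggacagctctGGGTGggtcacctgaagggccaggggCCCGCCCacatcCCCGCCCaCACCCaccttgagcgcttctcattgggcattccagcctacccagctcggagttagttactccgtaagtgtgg
Nr0b1, chrX:86191525-86191774, plus strand: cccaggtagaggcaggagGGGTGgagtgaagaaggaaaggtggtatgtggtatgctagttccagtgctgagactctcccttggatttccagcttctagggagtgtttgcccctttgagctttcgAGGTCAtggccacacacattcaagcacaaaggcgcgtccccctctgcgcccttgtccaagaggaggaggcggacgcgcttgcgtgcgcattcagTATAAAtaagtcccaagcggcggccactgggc
Nr5a2, first start, chr1:136960449-136960698, minus strand: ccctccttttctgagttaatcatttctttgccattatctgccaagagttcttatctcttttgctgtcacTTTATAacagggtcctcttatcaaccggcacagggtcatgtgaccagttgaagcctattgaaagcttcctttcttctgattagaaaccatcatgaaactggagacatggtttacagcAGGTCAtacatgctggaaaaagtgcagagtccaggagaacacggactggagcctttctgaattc
Klf4, chr4:55532476-55532725, minus strand: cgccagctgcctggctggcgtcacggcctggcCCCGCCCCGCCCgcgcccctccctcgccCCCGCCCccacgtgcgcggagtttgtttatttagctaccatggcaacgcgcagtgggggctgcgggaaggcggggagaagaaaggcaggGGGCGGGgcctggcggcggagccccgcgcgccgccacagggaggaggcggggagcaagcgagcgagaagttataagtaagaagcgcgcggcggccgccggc
Klf2, chr8:72318812-72319061, plus strand: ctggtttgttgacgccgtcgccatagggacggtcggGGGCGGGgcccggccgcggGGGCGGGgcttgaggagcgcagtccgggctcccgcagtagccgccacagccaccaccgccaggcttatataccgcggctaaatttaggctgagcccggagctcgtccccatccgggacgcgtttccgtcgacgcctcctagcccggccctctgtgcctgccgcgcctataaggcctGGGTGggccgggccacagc

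The octamer was found in 1 of the 9 windows, that of Zfp42, starting 186 bases before the start, and in 1.60% of all 32851 windows of the same length in the reference. The same Zfp42 window held 3 CACCC boxes and 2 GC boxes. The nuclear receptor element lay 126 bases before the start of Nr0b1 and 64 bases before the first start of Nr5a2, thus in 2 of 9 windows, against 14.0% of all windows. The CACCC box was in 6 of 9 windows, of 5 genes, and in 52.0% of all windows. The GC box was in 3 of 9, those of Klf2, Klf4 and Zfp42, against 23.4% of all. The windows of Klf4 and Klf2 had the highest GC content of the 9, 74.0% and 71.2%, against a median of 52.4% over all windows. The 4 GC boxes of Klf4 include 2 that overlap each other. The TATA box was in 3 of 9 windows (12.4% of all), 28 bases before the start of Tfcp2l1, 32 bases before that of Nr0b1 and 181 bases before the first start of Nr5a2. The STAT element was in 1 of 9 (7.02% of all), the first of Esrrb, and the T-box element in 0 of 9 (5.11% of all). A match describes the letters of the reference genome. Binding was not measured, and the windows leave out enhancers.

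**Figure D1:**
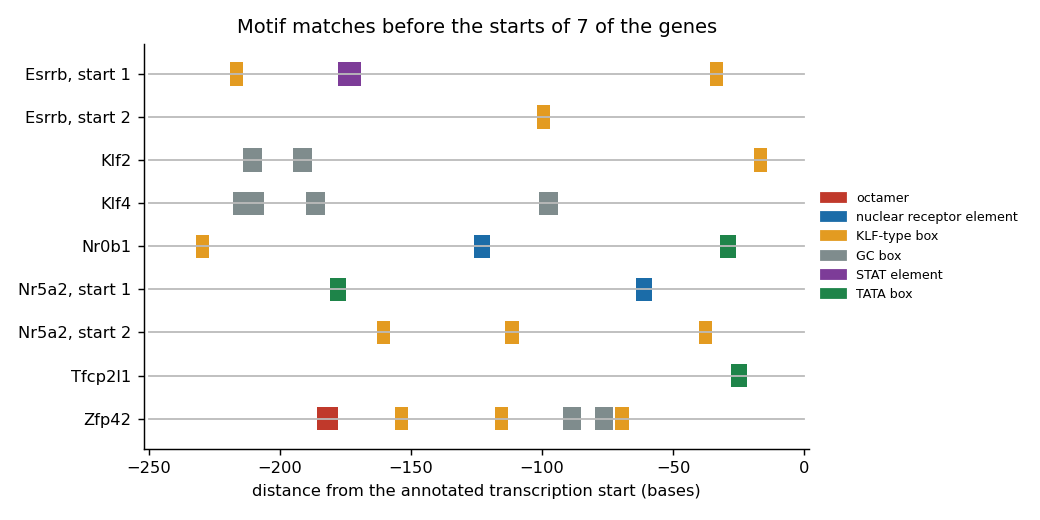
Motif matches in the 250 bases before the annotated transcription starts of 7 of the genes, 1 line per start, with the distance from the start in bases on the horizontal axis and the motif given by colour (the KLF-type box is the CACCC box). The octamer appears on the Zfp42 line alone, and nuclear receptor elements on the lines of Nr0b1 and the first start of Nr5a2.

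All 10 genes were above background on their brightest probe set, where 68.4% of all 18194 genes were. For 9 of them that probe set lay at least 4.05 log2 units above the threshold, and that of Prdm14 lay 1.39 above it, distances that also depend on the probes. Of the 24 probe sets, 18 were above background and 6 were not, where 61.8% of the 34958 probe sets with 1 gene were. The 10 genes have 2.40 probe sets on average, all genes 1.92 and the olfactory receptor genes 1.13, so taking the brightest favours the 10.

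**Figure D2:**
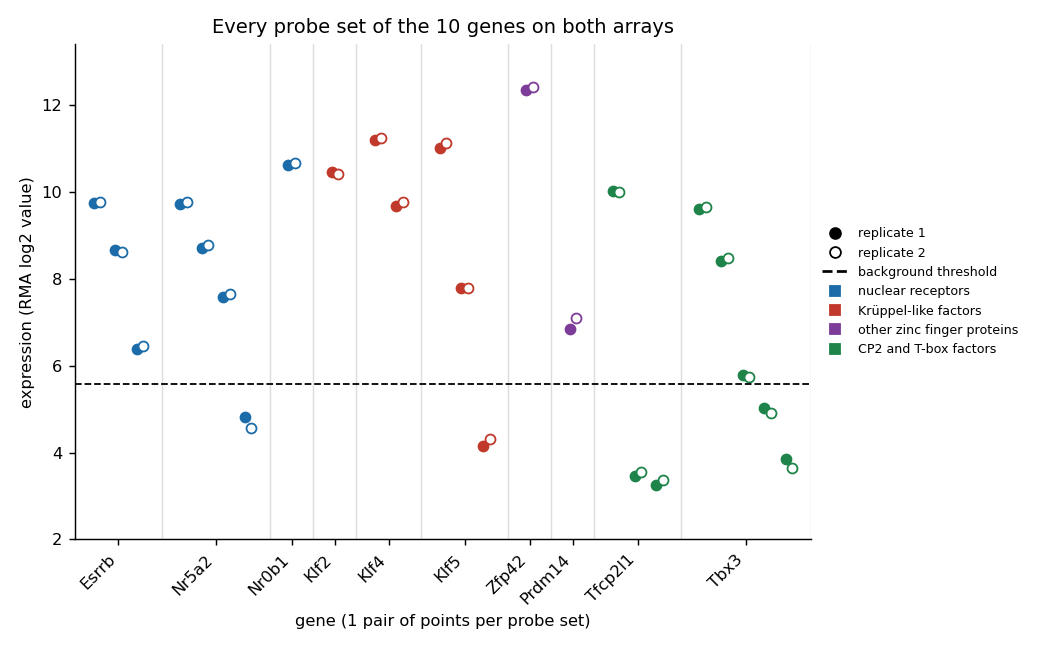
RMA log2 values of every probe set of the 10 genes, sorted within a gene by mean, with filled points for replicate 1 and open points for replicate 2. The dashed line is the background threshold of 5.59; 18 of 24 probe sets lie above it, and 6 probe sets of Nr5a2, Klf5, Tfcp2l1 and Tbx3 lie below it.

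Among the nuclear receptors, Esrrb is an orphan receptor that sustains self-renewal and is a main target of GSK3 inhibition in ES cells. Its probe set 1436926_at read 9.76 and 9.77 on replicates 1 and 2 (9.76 ± 0.0055), the closest match between arrays among the brightest probe sets of the 10 genes. Probe set 1441921_x_at, marked by its suffix as shared between transcripts or sequences, read 8.67 and 8.62. The suffixes _a_at, _s_at and _x_at were pooled as shared here, and their different meanings were not told apart. The third, 1422986_at, read 6.39 and 6.44, 0.83 log2 units above the threshold, although it is the one that the annotation names on a RefSeq transcript of Esrrb. All 3 were above background, over a span of 3.35 log2 units, which 42.0% of the 2069 expressed genes with 3 probe sets matched or exceeded.

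Nr5a2, an orphan receptor that binds regulatory DNA of Pou5f1, read 9.72 and 9.77 on 1420410_at (9.75 ± 0.036). Its 1456521_at read 8.71 and 8.78, and the shared 1449706_s_at read 7.58 and 7.66. Its 1449707_at read 4.83 and 4.57 and was not above background on either array. The span of 5.05 log2 units was matched or exceeded by 24.8% of 1006 expressed genes with 4 probe sets. Nr0b1, an X-linked receptor without the usual DNA-binding domain that acts as a corepressor of other receptors, has 1 probe set, 1417760_at, with 10.62 and 10.68 (10.65 ± 0.042).

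The Krüppel-like factors share a DNA-binding end of zinc fingers and bind GC-rich and CACCC sequences, and Klf2, Klf4 and Klf5 can stand in for each other in part in ES cells. Klf4, which LIF induces through STAT3, read 11.19 and 11.26 on 1417394_at (11.23 ± 0.044). The other Klf4 probe set, 1417395_at, read 9.68 and 9.76, so both were above background, with a span of 1.51 log2 units near the median of 1.72 for 3644 expressed genes with 2 probe sets. Klf2, also a regulator of endothelial genes, read 10.47 and 10.41 on its 1 probe set, 1448890_at (10.44 ± 0.039).

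Klf5, which also acts in the trophectoderm, read 11.02 and 11.13 on 1451021_a_at (11.08 ± 0.076), a probe set marked as shared between transcripts. Its unshared 1451739_at read 7.78 on both arrays, and 1430255_at read 4.14 and 4.32, below background. The brightest Klf5 value thus depends on the probe set: without shared ones the level was 7.78 in place of 11.08. Its span of 6.84 log2 units was matched or exceeded by 4.35% of the expressed genes with 3 probe sets, whose median was 2.96.

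Of the other zinc finger genes, Zfp42 encodes REX1, a classic marker of the naive state whose protein resembles YY1. It read 12.36 and 12.41 on 1418362_at (12.39 ± 0.035). Prdm14 encodes a factor that represses FGF signalling and DNA methyltransferase genes in ES cells and germ cells. Its 1 probe set, 1444390_at, read 6.85 and 7.10 (6.98 ± 0.18), above the threshold on both arrays.

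Tfcp2l1, a CP2-family factor and direct STAT3 target, read 10.03 and 9.99 on 1418091_at (10.01 ± 0.030), which is named on a RefSeq transcript. Its other probe sets were near the bottom of the scale: 1460715_x_at read 3.47 and 3.56, and 1460714_at read 3.25 and 3.37, where the lowest value of all on either array was 2.61. Both carry the same source accession in the annotation. The Tfcp2l1 span of 6.70 log2 units was matched or exceeded by 5.07% of expressed genes with 3 probe sets. Tfcp2l1 was the 1 gene of the 10 that was not above background when the median of its probe sets stood for it, at 3.52.

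Tbx3, a T-box repressor linked to PI3K signalling and the exit towards primitive endoderm, has 5 probe sets. The brightest, 1448029_at, read 9.61 and 9.67 (9.64 ± 0.043), and the shared 1437479_x_at read 8.41 and 8.48. Tbx3 probe set 1445757_at read 5.79 and 5.74, 0.18 log2 units above the threshold in its mean. The remaining 1439567_at (5.03 and 4.90) and 1444594_at (3.85 and 3.64) were not above background. The span of 5.89 log2 units was matched or exceeded by 20.0% of 436 expressed genes with 5 probe sets.

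Disagreement between probe sets of 1 gene was common on these arrays. Of the 6 factors with several probe sets, 4 (Nr5a2, Klf5, Tfcp2l1 and Tbx3) had some probe sets above background and others that were not. Over all 7155 genes with 2 to 5 probe sets whose brightest was above background, 50.6% did. Of those genes 3644 have 2 probe sets, as Klf4 alone of the 6 factors does, so the 2 shares rest on unlike numbers of probe sets. The annotation names 6 of the 24 probe sets on a RefSeq transcript of the gene, and all 6 were above background, against 65.6% of 5880 such probe sets on the array. Of these 6, 5 were the brightest or the 1 probe set of the gene, and Esrrb was the exception. Klf2, Nr0b1 and Zfp42 have 1 probe set each. Every factor had been called above background by its brightest probe set, so for these 5 the call was already given. Of the other 18, 12 were above background, against 61.1% over the array.

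The replicates matched closely for the 10 genes. The difference, replicate 2 minus replicate 1, ran from -0.05 to 0.25 log2 units over the 18 probe sets above background. Its SD was 0.072, against 0.118 for all probe sets above background, which were not matched for level. Among the probe sets closest in level, the SD was 0.052 for Zfp42 1418362_at and 0.180 for Tbx3 1445757_at. These were the lowest and highest for the 18, so the 0.118 cannot set the factors apart from other genes of their level. In the 6 dim probe sets the SD of the difference was 0.186, against 0.183 for all dim ones. No factor differed by 1.5-fold or more (0 of 10), and 0.0783% did among the 12769 genes that passed the threshold on 1 array or both. The median size of the difference was 0.057 log2 units over the 10 genes and 0.058 over all genes above background.

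The difference was positive for 8 of the 10 genes and negative for Klf2 and Tfcp2l1, where 57.0% of all genes above background were higher on replicate 2. Its median was 0.055 log2 units for the 10 and 0.015 for all. Prdm14 had the widest, 0.25 log2 units. Of the 1000 probe sets closest to it in level, whose SD was 0.142, 8.50% differed at least as much. Klf5 followed with 0.11 log2 units on 1451021_a_at, which 9.40% of probe sets of like level matched or exceeded. For the other 8 genes the difference on the brightest probe set was smaller than the SD at like level. From 30.2% (Klf4) to 91.4% (Esrrb) of probe sets of like level differed at least as much as theirs. The share of all genes within that SD was not counted, so the 8 is a description only. A pair of arrays allows no test of these differences.

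**Figure D3:**
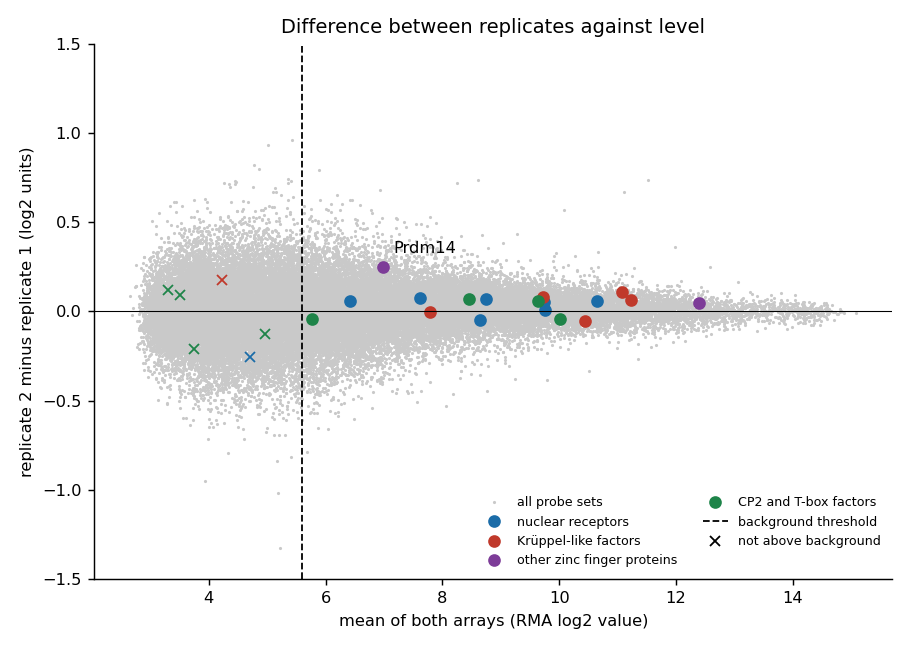
Replicate 2 minus replicate 1 in log2 units against the mean of both arrays, for all 45101 probe sets in grey and the 24 probe sets of the 10 genes in colour, with crosses for those not above background. The coloured circles lie between -0.05 and 0.25, and Prdm14 is the highest of them.

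Genes around these factors were measured on the same arrays, where 68.4% of all genes were above background. The core factors were all above background (4 of 4), with Pou5f1 at 12.63 ± 0.020, Sox2 at 12.11 ± 0.047, Nanog at 12.11 ± 0.063 and Sall4 at 11.06 ± 0.063. The LIF input was above background in 5 of 5 genes: the receptor subunits Lifr (9.62 ± 0.0047) and Il6st (11.14 ± 0.032), the kinase Jak1 (10.34 ± 0.051), Stat3 (10.51 ± 0.022) and its feedback inhibitor Socs3 (10.89 ± 0.099). In the GSK3-TCF and FGF inputs 6 of 6 measured genes were, among them Tcf7l1, the repressor of Esrrb, at 9.54 ± 0.077, Ctnnb1 at 14.04 ± 0.032, and the ligand gene Fgf4 at 9.38 ± 0.098. The values of Stat3, Socs3, Ctnnb1 and Fgf4 are those of shared probe sets. Without shared ones, only 4 of the GSK3-TCF and FGF genes were measured, and all 4 were above background.

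Genes of proteins that work with the factors were above background in 6 of 6 cases, where 68.4% of all genes were. Ncoa3, a coactivator of Esrrb, was at 9.06 ± 0.067. Cbfa2t2, the corepressor that Prdm14 recruits, was at 9.12 ± 0.013, and Rlim, the ubiquitin ligase that degrades REX1, was at 9.89 ± 0.063. Of the other genes of the naive state 9 of 9 were above background, including Dppa2 (11.74 ± 0.062), Dppa4 (10.98 ± 0.058) and Dppa5a (14.09 ± 0.013). Dppa3, which varies between cells of ES cultures, was 0.73 log2 units above the threshold, at 6.32 ± 0.043.

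Of 8 genes of the post-implantation epiblast, 5 were above background, where 68.4% of all genes were. These were Otx2 (6.84 ± 0.12), Pou3f1 (7.98 ± 0.069), Dnmt3b (11.04 ± 0.034), Lef1 (7.66 ± 0.040) and 1 more gene. Fgf5 read 5.55 and 5.93 and thus passed on replicate 2 alone. Zic2 read 5.33 and 5.35 and was below background on both arrays. All 8 passed at the 90th percentile of the olfactory receptor genes (5.07). With the median probe set 7 of 8 passed, without shared probe sets 6 of 6 measured, and on each array alone 6 of 8. The count stayed at 5 at the 99th percentile and with vomeronasal and taste receptor genes as reference. It thus rests on the threshold, the probe set and the need to pass on both arrays.

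**Figure D4:**
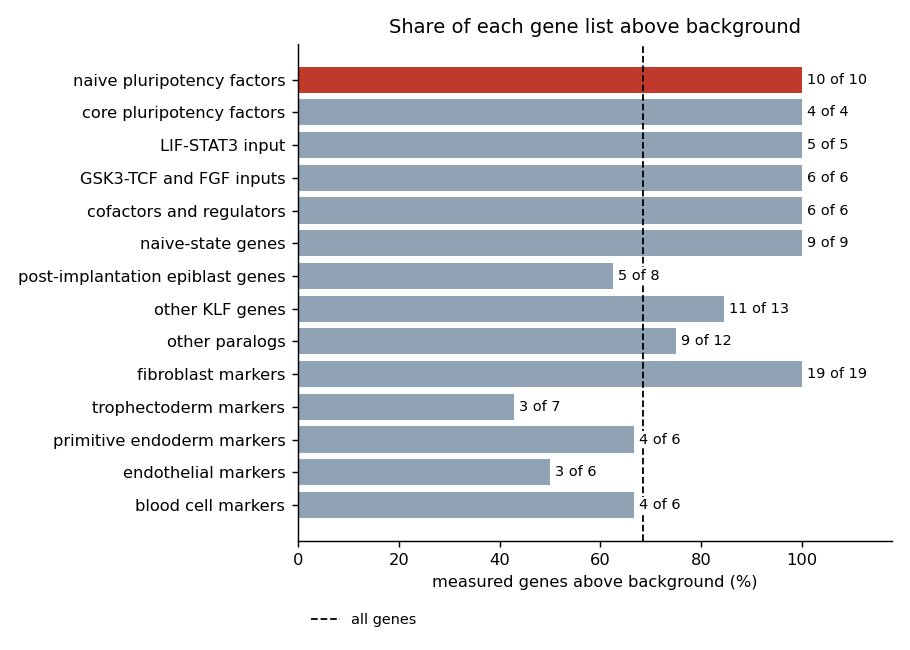
Share of measured genes above background in each list, as bars from 0, with the counts beside them and the share over all genes (68.4%) as a dashed line. The naive pluripotency factors stand at 10 of 10, post-implantation epiblast genes at 5 of 8 and fibroblast markers at 19 of 19.

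The families of these factors were represented by other genes as well. Of 13 other measured KLF genes, 11 were above background, where 68.4% of all genes were. Klf3 at 10.28 ± 0.011, Klf6 at 10.64 ± 0.029, Klf7 at 9.04 ± 0.012, Klf9 at 12.32 ± 0.028 and Klf10 at 9.36 ± 0.0077 are examples. Klf3 and Klf9 have 7 probe sets each, and taking the brightest favours such genes. Klf1, the erythroid factor, read 5.30 and 5.54, and Klf17 read 4.33 and 4.29 on its brightest probe set; neither was above background. Of 12 other measured paralogs 9 were above background, also against 68.4% of all genes.

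In the receptor family, Esrra, a ubiquitous regulator of energy metabolism, was at 8.08 ± 0.037, whereas Esrrg read 4.78 and 4.50, below background. Nr5a1, the steroidogenic relative of Nr5a2, was at 5.80 ± 0.020, 0.21 log2 units above the threshold, and Nr0b2, the relative of Nr0b1, read 5.11 and 5.00, below it. Tfcp2 and Ubp1, the ubiquitous relatives of Tfcp2l1, were above background at 7.60 ± 0.20 and 10.52 ± 0.0057. Tbx2, the closest relative of Tbx3, read 4.22 and 3.93 and was not. Yy1, the relative of Zfp42, was at 11.63 ± 0.0093, and Prdm1 was at 7.20 ± 0.067.

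The RNA came from the whole culture. All 19 measured markers of fibroblasts, the usual feeder cells, were above background, where 68.4% of all genes were. They ran from 8.81 to 14.87, with a mean over the list of 12.20 on replicate 1 and 12.22 on replicate 2. Col1a1 was at 12.67 ± 0.021, Col1a2 at 14.87 ± 0.0061, Col3a1 at 14.86 ± 0.0025 and Col5a1 at 12.73 ± 0.014. Several of the factors, Klf2, Klf4, Klf5 and Tbx3 among them, are also known outside ES cells, and which cells their transcripts came from was not tested. In such bulk RNA, fewer cells of a type and less RNA per cell cannot be told apart.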

How the data were processed

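Total RNA of 1 ES cell line was measured on 2 Affymetrix arrays with 45101 probe sets. The authors deposited log2 values from RMA, per the submitters' processing notes. In its usual form RMA corrects background, quantile-normalizes and summarises each probe set. Its version and the arrays it was run on are not stated here. The arrays' medians were 6.01 and 6.01, and with quantile-normalized values a shift common to most transcripts is hidden. Precision is limited by the number of arrays. All deposited columns were used.

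The platform annotation gave the names: 34958 had 1 gene symbol, 932 had several and 9211 had none here. All 10 genes matched the RefSeq gene table by identifier. The probe set with the highest mean stood for a gene. For genes outside the 10 it could be a shared one, as for Klf6, Klf9, Ubp1, Otx2 and Dnmt3b, and the text does not mark each such gene. No test was possible with 1 group, and values are described against the olfactory receptor threshold, against all genes, and against the 1000 probe sets nearest in mean. The text names all 10 genes with every probe set, measured genes of the core, input, cofactor, KLF and paralog lists, and the first 4 above and first 2 not above background of other lists. The factors and lists were chosen with earlier results of these data known.

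The alternatives were the median of all probe sets, leaving out shared probe sets (_a_at, _s_at and _x_at), the 99th and 90th percentiles, 38 vomeronasal and taste receptor genes as reference, a threshold over single probe sets, each array alone, centring each array, and removing a loess curve of the difference on the mean (fraction 0.3). Motifs were searched in the 250 bases before RefSeq starts. Calculations used Python 3.11.15, numpy 2.4.6, pandas 2.3.3 and statsmodels 0.14.6, and the steps were tested on simulated data.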

Additional observations from a re-analysis of the deposited data

How the results depend on the processing

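All 10 factors stayed above background under 6 of 7 alternatives, and 9 did when the median probe set stood for a gene, which left out Tfcp2l1. By construction, the lower threshold of the 90th percentile and each array alone could not lose a gene already called. Their results therefore do not show how firm the calls are. Of 24 probe sets, the 18 above background became 17 with the vomeronasal and taste receptors (threshold 6.06) and 14 of 19 without shared probe sets. Of 117 alternative counts and differences, 111 stayed within 1.5 times the reported value. The other 6 were the SD of the difference over all 24 probe sets (0.112 in place of 0.072), post-implantation epiblast genes at the 90th percentile (8 in place of 5), trophectoderm markers at the 90th percentile and with the median probe set (5 each in place of 3), trophectoderm markers on replicate 1 alone (5 in place of 3), and primitive endoderm markers with the vomeronasal and taste receptors (2 in place of 4). The percentile and the reference genes set the threshold, and the SD took in dim probe sets. The cause was not tested for the others. Counts were compared whatever the number of genes measured. Post-implantation epiblast genes thus counted as unmoved when 5 of 8 became 6 of 6 without shared probe sets. Some of the 117 values, such as the SD after centring, could not move by construction, so the 111 is no measure of robustness. Levels fell by 0.75 to 6.50 log2 units in the 6 factors with several probe sets when their median was used, and by 3.29 in Klf5 without shared probe sets. Centring could not move a level, by construction. No paired analysis was possible because there was 1 group only. Values close to the threshold, such as that of Prdm14, are limited by their signal over background.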

Other observations

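Markers of other lineages in which some of the factors are known to act were above background in part. Of all genes, 68.4% were above background. Of 7 trophectoderm markers, a lineage in which Klf5, Tfcp2l1 and Nr5a2 are also known, 3 were above background: Cdx2 (5.74 ± 0.13), Tfap2c (6.85 ± 0.11) and Tead4 (6.19 ± 0.020). Elf5 read 4.13 and 4.34 on replicates 1 and 2, and Gata3 read 5.30 and 5.05. The trophectoderm count of 3 became 5 at the 90th percentile, with the median probe set and on replicate 1 alone. It became 2 with the vomeronasal and taste receptors as reference. Of 6 primitive endoderm markers 4 were above background, with Gata6 at 7.72 ± 0.013 and Dab2, which fibroblasts also express, at 8.90 ± 0.024, while Sox7 (5.90 ± 0.22) and Sox17 (5.81 ± 0.043) lay close to the threshold of 5.59. Gata4 read 5.48 and 5.41 and Afp read 4.90 and 5.06, both below it.

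Klf2 and Klf4 are also known from endothelium, of which 3 of 6 markers were above background, where 68.4% of all genes were. Kdr was at 6.67 ± 0.11, Tek at 6.15 ± 0.19 and Esam at 6.75 ± 0.13, whereas Cdh5 (4.41 and 4.53) and Tie1 (3.82 and 3.92) were not above background. Of 6 blood cell markers 4 were, with Csf1r at 6.73 ± 0.19, Adgre1 at 5.74 ± 0.11, Lyz2 at 9.33 ± 0.010 and Cd68 at 7.45 ± 0.039, whereas the pan-leukocyte gene Ptprc read 3.96 and 4.14 and Itgam read 3.87 and 3.98. The part of these cells in the values of the factors was not tested.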
